A study of Mus musculus with 4 samples.

Results

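Among the cells of mouse aortic arches, 89 monocytes were picked out by raw counts of UMIs, the molecular tags by which every mRNA molecule caught from a cell is counted a single time. From 14148 cells that had 200 to 6000 genes and at most 15% mitochondrial UMIs, out of 15599 barcodes, a cell was taken when it held at least 3 UMIs of Plac8, at least 3 of Ly6c2 and Chil3 together, at least 5 of Lyz2 and at least 1 of Ccr2 or Csf1r. It also had to hold no UMI of Cd3e, Cd79a or Pdgfra and at most 1 of Retnlg, which mark T cells, B cells, fibroblasts and neutrophils. These genes chose the cells, so their levels below are a description and support nothing. The cells are called Ly6c2/Chil3 monocytes here, after the genes of the rule. They were set beside the other 1554 kept cells with at least 1 UMI each of Csf1r, the receptor of macrophage colony-stimulating factor, and Ptprc, which encodes the leukocyte antigen CD45.

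The arches, with their branches and surrounding tissue, came from male mice that were 3 months old at the start, and the living cells were sorted and sequenced on the 10x Chromium 3′ platform. The study compared mice whose Nfe2l2 gene, which encodes the transcription factor Nrf2, is flanked by loxP sites (Nrf2 flox/flox, labelled Nrf2Cdh5Lox) with mice that also carry the Cdh5-cre transgene (Nrf2 Cdh5tKO, labelled Nrf2Cdh5tKO), which removes an exon in endothelium and in a part of the hematopoietic cells. Each genotype was studied without atherosclerosis (CTR, standard diet, no virus, 4 mice pooled) and with it (HFD, 1 injection of a viral vector and high-fat diet for 21 weeks, 3 mice pooled). Each of the 4 groups is thus 1 library of pooled mice, named Lox_CTR, KO_CTR, Lox_HFD and KO_HFD after its labels, and diet and vector cannot be told apart. Values for the 4 libraries are given in that order throughout. With 1 library per group no test between groups was made, no p-value is given, and every interval is a 95% interval that covers counting error only.

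Classical monocytes leave the bone marrow through the chemokine receptor Ccr2, carry the surface protein Ly6C encoded by Ly6c2, and are the blood cells that enter the arterial wall in atherosclerosis and become macrophages or dendritic cell-like cells there. In blood they also turn into nonclassical monocytes, which lose Ly6C and Ccr2, gain Treml4, Cd300e, Ace and Spn, and patrol the vessel wall. Chil3 (a chitinase-like secreted protein) and Hp (haptoglobin, which binds free hemoglobin) mark young classical monocytes, and Lyz2 encodes lysozyme.

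The 89 cells held a median of 11883 UMIs (4824 to 31125). Their medians by library, 11866.5, 12977, 11664 and 10895.5 UMIs, lay close together, and the summed UMIs behind the values were 546110, 197600, 298999 and 86824. KO_HFD, with 8 cells, is therefore the least precise library. All 89 held at least 3 UMIs of Plac8 by the rule, with a median of 43. Ly6c2 (chromosome 15, 75108158 to 75111970 on the minus strand of mm10) was seen in 83 of them with a median of 8 UMIs, and Chil3 (chromosome 3, 106147554 to 106167564, minus strand) in 67 with a median of 7. Ly6c2 and Chil3 occurred together in 61 cells, Ly6c2 without Chil3 in 22 and Chil3 without Ly6c2 in 6. Ccr2 (chromosome 9, 124101950 to 124113557, plus strand) was seen in 76 cells with a median of 8 UMIs.

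The edges of the rule were thinly populated for most genes. Of the cells inside, 3 held exactly 3 UMIs of Plac8 and 5 exactly 3 of Ly6c2 and Chil3 together. Of the cells that met every other condition, 8 failed on Plac8 alone, 65 on Ly6c2 and Chil3, 5 on Lyz2, 3 on Ccr2 and Csf1r, 3 on Cd3e, 1 on Cd79a, 4 on Retnlg and 11 on Pdgfra. Only 7 of the 65 that failed on Ly6c2 and Chil3 stood 1 UMI short. None of the 89 cells was called a doublet by Scrublet. Cell barcodes shared by 2 or more libraries numbered 30, and none belonged to these cells.

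Not every cell had the markers of a classical monocyte alone. In 20 of the 89 cells Treml4 and Cd300e, markers of nonclassical monocytes, summed to 2 UMIs or more, against 4.18% of the other Csf1r and Ptprc cells. Nearly all of that signal was Treml4, since Cd300e was seen in 3 cells of Lox_CTR alone. The 20 cells were spread unevenly: 15 of 44 in Lox_CTR (34.1%, 20.5 to 49.9%), 1 of 15 in KO_CTR (6.67%, 0.169 to 31.9%), 0 of 22 in Lox_HFD (0 to 15.4%) and 4 of 8 in KO_HFD (50%, 15.7 to 84.3%). At least 10 UMIs of neutrophil granule genes (Camp, Ngp, Ltf), progenitor genes (Mpo, Elane, Prtn3, Ctsg) or genes of dividing cells (Mki67, Top2a) marked 6 cells, of which 2 each lay in Lox_CTR, KO_CTR and Lox_HFD. Of these 6, 1 cell in Lox_CTR also counts among the 20. The remaining 64 cells numbered 28, 12, 20 and 4, and the counts and values that these cells set are named below. These thresholds were chosen after the values were seen.

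Ly6c2/Chil3 monocytes made up a larger share of Lox_HFD than of the other libraries. They were 44 of 7890 kept cells in Lox_CTR (0.558%, 0.405 to 0.748%), 15 of 2972 in KO_CTR (0.505%, 0.283 to 0.831%), 22 of 1020 in Lox_HFD (2.16%, 1.36 to 3.25%) and 8 of 2266 in KO_HFD (0.353%, 0.153 to 0.694%). The interval of Lox_HFD did not overlap those of the other 3 libraries, which overlapped each other. Lox_HFD was also the library with the fewest kept cells. Among the cells with Csf1r and Ptprc together with the 89, the shares were 5.17% (3.78 to 6.88%), 4.26% (2.40 to 6.93%), 14.1% (9.05 to 20.6%) and 2.82% (1.22 to 5.47%), in the same arrangement. When every cell was thinned to 5000 UMIs and the rule applied again, 41, 11, 14 and 7 cells met it. The shares of kept cells were then 0.636%, 0.452%, 1.86% and 0.448%. Of the thinned cells with Csf1r and Ptprc they were 7.36%, 4.95%, 12.7% and 4.27%, and there the interval of Lox_HFD (7.14 to 20.4%) overlapped the others. Without the Treml4 and Cd300e cells, Lox_CTR held 29 such cells, 0.368% of its kept cells, and KO_HFD 4, 0.177%. A share of recovered cells depends on digestion and sorting as well as on the tissue, and their part in these shares was not tested.

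**Figure D1:**
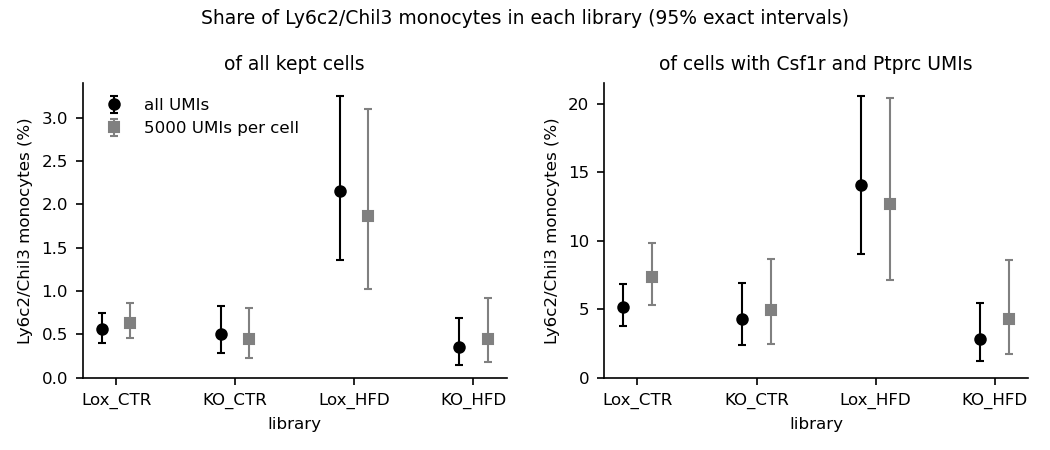
Share (%) of Ly6c2/Chil3 monocytes in each of the 4 libraries, of all kept cells (left) and of cells with Csf1r and Ptprc UMIs (right); black circles use all UMIs, grey squares cells thinned to 5000 UMIs, and bars are exact 95% Clopper-Pearson intervals for counting error. Lox_HFD stands at 2.16% of kept cells and the other 3 libraries between 0.353% and 0.558%.

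Cell by cell, genes of the rule and of monocyte function were spread widely within each library. Ly6c2 ran from 0 to 64 UMIs per cell with a median of 10 in Lox_CTR, from 3 to 54 with a median of 7 in KO_CTR, from 0 to 83 with a median of 10 in Lox_HFD and from 2 to 29 with a median of 4.5 in KO_HFD. Chil3 had medians of 9, 4, 4.5 and 6 UMIs and Ccr2 of 8, 7, 10 and 2.5. The libraries overlapped for all 3 genes. In Lox_CTR most cells with Treml4 or Cd300e lay low in Ly6c2 and Ccr2. The only such cell of KO_CTR held 13 UMIs of Ccr2, above its library's median of 7. Those of KO_HFD held 2 to 9 UMIs of Ly6c2, around its median of 4.5. Thbs1, which encodes the matrix glycoprotein thrombospondin 1, had medians of 2, 3, 13.5 and 1.5 UMIs, and was seen in 53 of the 89 cells. Il1b, the cytokine interleukin 1 beta, had medians of 6.5, 16, 5 and 4 UMIs and reached 138, 213, 153 and 100 in single cells.

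**Figure D2:**
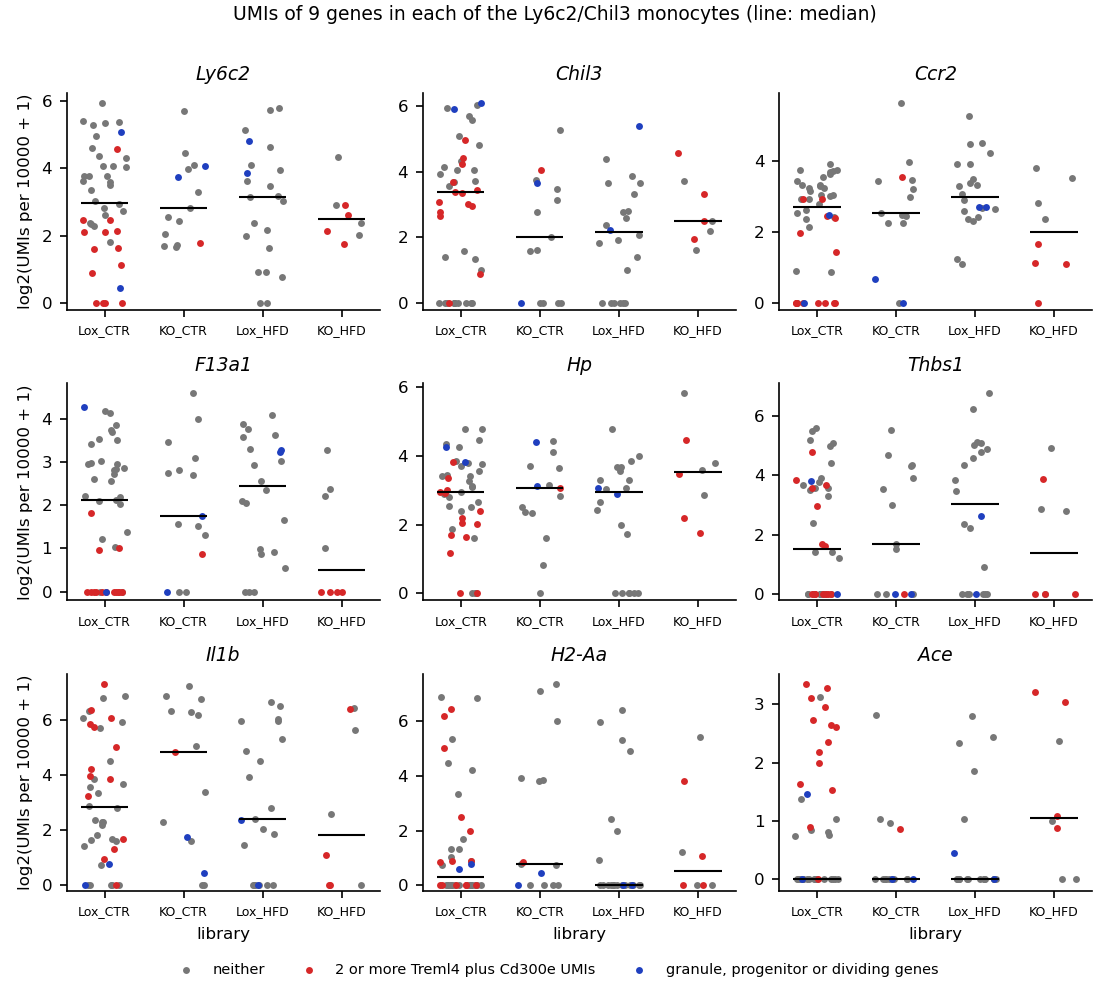
UMIs per 10000 of 9 genes in each of the 89 Ly6c2/Chil3 monocytes, as log2 after adding 1, by library; red points are cells with 2 or more UMIs of Treml4 and Cd300e, blue points cells with granule, progenitor or dividing-cell genes, grey points the other 64 cells, and lines are medians of all cells of a library. In Lox_CTR most red points sit low for Ly6c2, Ccr2 and F13a1 and high for Ace, while the red point of KO_CTR sits high for Ccr2. H2-Aa is high in a minority of cells of every library.

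Summed over the cells of a library and scaled to 1000000 UMIs (CPM), 146 of 11128 genes with 50 or more UMIs were at least 2-fold higher in Ly6c2/Chil3 monocytes than in the other Csf1r and Ptprc cells in all 4 libraries (1.31% of genes), and 1284 were at least 2-fold lower (11.5%). The median gene stood at a log2 ratio of -0.41. The genes of the rule are not counted here, and since the cells were chosen by measured genes, these are descriptions with no test. For scale, the share of cells with a UMI is also given in 2220 smooth muscle cells (3 or more UMIs of Myh11, none of Ptprc, median 15603.5 UMIs), which should lack monocyte genes and show what free RNA gives. Of the 2 markers outside the rule, both were higher everywhere. Hp (chromosome 8, 109575128 to 109579172, minus strand) stood at 873, 956, 649 and 1797 CPM against 44.3, 34.1, 96.3 and 56 in the other cells, a log2 ratio of 4.21 (4.08 to 4.34) over all libraries. It was seen in 86.5% of these cells, 10.9% of the other cells and 3.87% of the smooth muscle cells. Thbs1 (chromosome 2, 118111876 to 118127133, plus strand) stood at 895, 819.8, 1732 and 783 CPM against 77.8, 35.3, 395 and 105, a log2 ratio of 3.44 (3.34 to 3.55). Every library's Ly6c2/Chil3 monocytes lay above every library's other cells for both genes.

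The list of adhesion and of passage through the vessel wall had a median log2 ratio of 1.45. Of its 15 measured genes none was lower and 5 were at least 2-fold higher in all 4 libraries. Among them were the integrin gene Itgb7 (92.1 to 196 CPM against 15.5 to 67.8), the neutrophil and monocyte surface gene Cd177 (80.6 to 130.4 against 3.13 to 34.8) and Vcan, which encodes the proteoglycan versican (116 to 223 against 25.3 to 48.6). Vcan was also seen in 54.5% of the smooth muscle cells. Spn, which encodes the sialoprotein CD43 and marks nonclassical monocytes, was counted among the 5 as well, but in Lox_CTR it had 30 UMIs in 14 of the Treml4 and Cd300e cells and 1 in the 28 unmarked cells, and without the former it was not higher. Itga4, the alpha chain of the integrin VLA-4, had 309, 521, 381 and 403 CPM against 116, 117, 198 and 142, and Itgam, the alpha chain of Mac-1, 255, 243, 231 and 242 against 158, 149, 222 and 174, so that Itgam did not reach 2-fold in any library.

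Among 25 receptors for microbial patterns and phagocytosis, 6 were at least 2-fold higher in all 4 libraries and none lower, with a median log2 ratio of 0.77. Clec4e, the lectin Mincle that senses mycobacterial glycolipids and dying cells, stood at 795, 764, 682 and 967 CPM against 96.3, 36.9, 229 and 132, a log2 ratio of 2.92 (2.80 to 3.04). Its neighbour in the same receptor family, Clec4d, reached 1.91 (1.69 to 2.12). Trem1 and Trem3, receptors that amplify inflammatory signals, reached 2.24 (1.89 to 2.57) and 3.26 (2.87 to 3.65), Sirpb1c 3.69 (3.42 to 3.97) and Cd300lf 2.41 (1.90 to 2.91). Of 15 antimicrobial and secreted proteins outside the rule, 4 were higher and 1 was lower, with a median of 1.06. They were Hp, Msrb1, which repairs oxidized methionine (901, 622, 809 and 1140.2 CPM against 133, 86.6, 171 and 107), the calcium-binding S100a4 (log2 ratio 1.72) and galectin 3, encoded by Lgals3 (1.63). Cfp, the complement protein properdin, was the lower one (-1.55).

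Of 37 measured interferon-stimulated genes 9 were at least 2-fold higher in all 4 libraries and none lower, with a median log2 ratio of 1.14. Ms4a4c, a membrane protein of the CD20 family (chromosome 19, 11404770 to 11427246, plus strand), had the highest ratio of them, at 571, 455, 485 and 288 CPM against 20.8, 22.2, 41.8 and 29.8, a log2 ratio of 4.38 (4.20 to 4.56), and was seen in 87.6% of these cells, 10.2% of the other cells and 0.135% of the smooth muscle cells. Irf7, the transcription factor that drives type I interferon genes (chromosome 7, 141262706 to 141266481, minus strand), stood at 194, 283, 187 and 322 CPM against 23.4, 45, 45 and 57.3. The others were Slfn1 (log2 ratio 3.20), Ifi209 (2.31), Ifitm6 (2.12), Ms4a6c (2.05), Zbp1 (1.97), Ifi211 (1.71) and Ifitm3 (1.42). Zbp1 senses nucleic acids and Ifitm3 blocks virus entry.

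The promoters of this list, and of its higher members, were read for 1 short sequence. Of its 37 genes 30 had a promoter in the RefSeq table of GRCm38.p6 (250 bases before to 50 after the start), and the letters GAAA followed after any 2 bases by GAAA again, the core of the interferon-stimulated response element, were found on either strand in 15 of them (50%), against 3.99% of 27025 genes. Of the 9 higher members 8 had a promoter, and 2 of them (25%), Ifitm3 and Ifi211, held these letters. Most higher members thus did not share them in this window. The 250 bases before the start are shown for Ifi211 (chr1:173913047-173913296, minus strand), with the match in capitals 37 to 28 bases before the start, and for Ms4a4c (chr19:11407411-11407660, plus strand), the member with the highest ratio, which had no match in this window. The RefSeq start of Ms4a4c lies inside the span given above, which begins with another transcript of the GENCODE annotation, so the window belongs to 1 of its starts only.
Ifi211: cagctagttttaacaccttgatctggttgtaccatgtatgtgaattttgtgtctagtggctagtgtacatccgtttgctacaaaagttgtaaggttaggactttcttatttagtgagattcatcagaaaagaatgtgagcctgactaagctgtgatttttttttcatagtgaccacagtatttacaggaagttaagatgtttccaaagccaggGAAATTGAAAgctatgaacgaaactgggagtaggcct
Ms4a4c: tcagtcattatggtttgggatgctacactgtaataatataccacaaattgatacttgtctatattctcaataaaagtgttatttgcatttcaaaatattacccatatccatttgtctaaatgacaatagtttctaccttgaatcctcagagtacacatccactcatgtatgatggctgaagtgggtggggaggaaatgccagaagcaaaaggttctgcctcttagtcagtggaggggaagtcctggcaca
Both run 5′ to 3′ on the strand of the gene. A match is a description of letters, not a bound site.

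Other genes that stood high in all 4 libraries reach from coagulation to metabolism. F10, which encodes coagulation factor X, stood at 326, 162, 468 and 438 CPM against 29.7, 8.05, 88.7 and 45.3, a log2 ratio of 3.37 (3.19 to 3.56), and was seen in 73% of these cells, 9.20% of the other cells and 0.225% of the smooth muscle cells. With Thbs1 it was 1 of 2 genes higher among 15 of coagulation and fibrinolysis, while the tissue factor gene F3 (-3.90) and the urokinase gene Plau (-3.13) were the 2 lower ones. Gsr, which encodes glutathione reductase, stood at 390.0, 481, 415 and 645 CPM against 46.6, 34.4, 95 and 45.6, and the cystine transporter gene Slc7a11 at 297, 187, 224 and 161 against 90.4, 27.8, 79.2 and 30.4. These were the 2 higher genes of 20 in the Nrf2 list, whose median log2 ratio was -0.17, and Blvrb, a heme-breakdown enzyme, was the lower one (-2.24). Gm9733, a predicted gene, was also high with 282, 228, 204 and 576 CPM against 8.16, 6.66, 19.6 and 6.33. The heparan sulfate-cutting enzyme gene Hpse (2.76), the cell-cycle transcription factor gene E2f2 (2.99), the receptor genes Gpr141 (3.99), Treml2 (3.65) and Klra2 (3.04), Sephs2, which makes selenophosphate (2.55), Ccdc125 (3.57) and Gm5150 (3.20) followed. Met and Nrg1, the receptor of hepatocyte growth factor and the ligand neuregulin 1, had ratios of 4.29 and 4.33 over all libraries but only 10, 10, 7 and 1 and 15, 1, 9 and 5 UMIs.

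**Figure D3:**
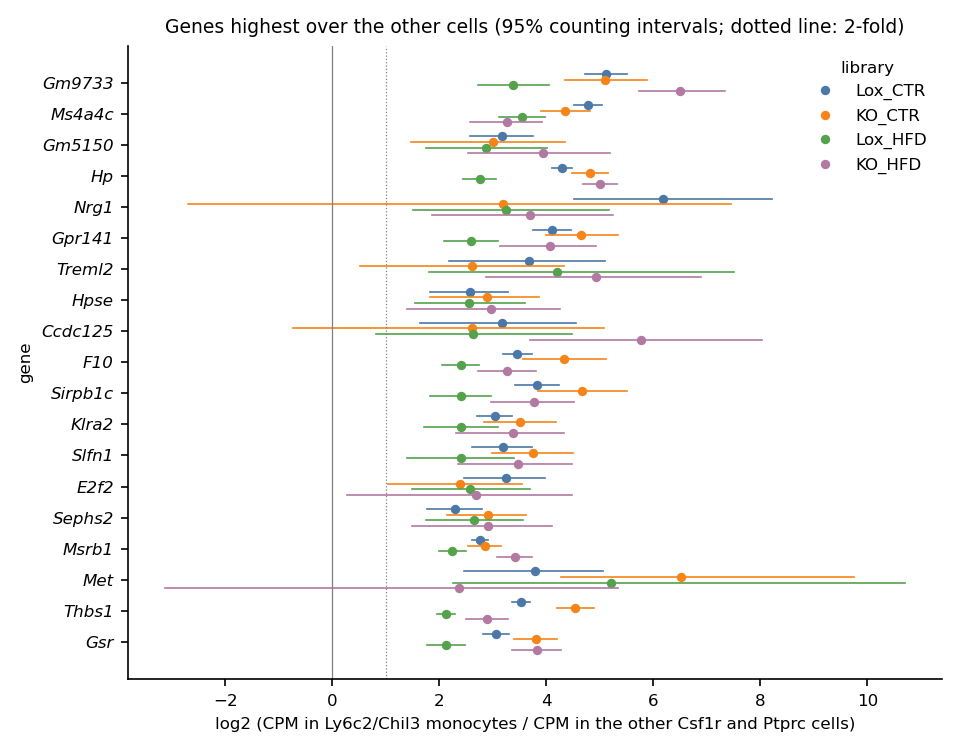
Log2 ratio of CPM in Ly6c2/Chil3 monocytes to CPM in the other Csf1r and Ptprc cells for 19 of the 20 genes highest by their lowest library, without the genes of the rule; each colour is 1 of the 4 libraries, lines are 95% counting intervals and the dotted line marks 2-fold. For Hp, F10, Sirpb1c, Thbs1 and Gsr, Lox_HFD has the lowest ratio of the 4 libraries.

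Genes of resident and mature macrophages were low. All 12 measured markers of resident macrophages were at least 2-fold lower in all 4 libraries, with a median log2 ratio of -5.50. Lyve1, a hyaluronan receptor, had a UMI in 1 of the 89 cells against 52.7% of the other cells, and Folr2, a folate receptor, and Cd163, the receptor for hemoglobin bound to haptoglobin, in 3 cells each against 60.2% and 54.9%. The complement gene C1qb was the most abundant of the list in these cells at 198, 223, 120.4 and 46.1 CPM against 3619, 3520.0, 2369.8 and 3804, and 3 cells held 10 or more of its UMIs. Of 22 genes of macrophage maturation 13 were lower and none higher, with a median of -2.72. They included Mrc1, the mannose receptor (-6.02), the tetraspanin genes Cd63 (-2.52) and Cd81 (-3.82), the transcription factor gene Maf (-2.68), and Mertk (-2.88) and Axl (-2.21), receptors for the uptake of dying cells. Apoe stood at 1629.7, 2551, 2191 and 1348 CPM against 9627, 14462, 8437 and 8395.

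Retnla, a secreted protein of alternatively activated and cavity macrophages, stood at 60.4, 15.2, 26.8 and 0 CPM against 7566, 1028, 5365 and 5290.0, and 5 of 8 genes of that list were lower in all 4 libraries. The chemokine list had 5 of 17 genes lower and none higher, namely Ccl8 (-3.82), Ccl12 (-5.14), Ccl24 (-7.03), Cxcl16 (-2.08) and Cxcl13. No UMI was found in the 89 cells for Mmp12, Gpr34, Timd4, Cxcl13, Pla2g2d, Etv1, Cd209b and Npl, of which Mmp12, a macrophage elastase, stood at 129, 105, 90.6 and 164 CPM in the other cells and Timd4, a receptor for phosphatidylserine, at 56.4, 80.2, 55.1 and 66.5. Fcrls had 2, 0, 2 and 0 UMIs. The complement receptor gene C3ar1 was low as well (16.5, 45.5, 46.8 and 46.1 CPM against 311, 387, 241 and 299).

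None of 20 genes of inflammatory cytokines and the inflammasome and none of 20 of glycolysis and hypoxia was past 2-fold in all 4 libraries, and their medians were 0.29 and 0.40 on the log2 scale. Il1b was higher in each library but short of 2-fold in Lox_HFD and KO_HFD, with 2320.1, 4038, 2385 and 2280.5 CPM against 876, 814, 1275 and 1220.2, and was seen in 78.7% of these cells, 41% of the other cells and 6.22% of the smooth muscle cells. Of 23 monocyte transcription factor genes 1 was lower, Maf, and none higher. Of 14 receptors for colony-stimulating and other growth factors 1 was higher, Il17ra, with 98.9, 162, 201 and 242 CPM against 30.3, 34.7, 69.7 and 48.1, and the median of that list was 0.96. Of 21 genes of lipid handling 2 were higher, Lgals3 and the oxidized-lipoprotein receptor gene Olr1 (2.38), and 4 lower, the fatty acid translocase gene Cd36 (-2.80), the cholesterol transporter gene Abca1 (-1.58), the lipase gene Lpl (-2.86) and Apoe (-2.42). Of 18 immediate early and heat shock genes, which tissue digestion can induce, 2 were lower, Fosb (-1.88) and Egr1 (-1.88), and the median was -0.66.

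These counts were read again without the 20 Treml4 and Cd300e cells, without the 6 granule, progenitor and dividing cells, and without both. In the adhesion list 4, 6 and 5 of 15 genes were then higher, and among the interferon-stimulated genes 11, 11 and 14 of 37. In the glycolysis and hypoxia list they numbered 2, 0 and 1 of 20. In that of inflammatory cytokines and the inflammasome they numbered 0, 0 and 1 of 20. Over all genes, 130 were higher and 1315 lower in all 4 libraries without the Treml4 and Cd300e cells. Without the granule, progenitor and dividing cells they numbered 157 and 1461, against 146 and 1284 with all cells. Of the marker lists, 3, 5 and 5 of 9 neutrophil genes outside the rule were lower in all 4 libraries in these settings. With all cells 2 of them were lower. Of 8 genes of dividing cells 0, 5 and 5 were lower, against 0 with all cells. The granule, progenitor and dividing cells were marked by genes of these kinds, so leaving them out sets these changes in part. Spn missed 2-fold each time, with 1 UMI (2.60 CPM) in Lox_CTR against 21 CPM in the other cells once the Treml4 and Cd300e cells were left out. Olr1 and Met then had no UMI in KO_HFD, and without the granule, progenitor and dividing cells Nrg1 had none and Treml2 1 in KO_CTR. The other genes named as higher in all 4 libraries stayed past 2-fold in each without either kind of cell. Of the genes named as lower, Egr1 was no longer past 2-fold in all 4 libraries without either kind, Cfp without the Treml4 and Cd300e cells, and Lpl and Abca1 without the granule, progenitor and dividing cells.

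Markers of other cell types were measured beside these results. Neutrophil genes summed to 19443, 36215, 241 and 691 CPM, with S100a9 the most abundant in Lox_CTR and KO_CTR and S100a8 in Lox_HFD and KO_HFD (140.5 and 495 CPM). In Lox_CTR 1 cell of 28261 UMIs held 4689 of its library's 4710 UMIs of S100a9 and 1393 of Camp, and in KO_CTR 1 cell of 28402 UMIs held 2960 of 2962 and 1298 of Camp. Fibroblast genes summed to 1121, 658, 575 and 438 CPM against 3028 to 5337 in the other cells, with Gsn the most abundant in Lox_CTR, KO_CTR and KO_HFD and Dcn in Lox_HFD (217 CPM), and all 7 measured were lower in all 4 libraries. The rule itself allowed no UMI of Pdgfra, a fibroblast gene. Smooth muscle genes summed to 721, 283, 130.4 and 346 CPM, led by Acta2, and no T cell gene was seen in KO_CTR or KO_HFD. Cdh5, the endothelial gene whose promoter drives the Cre, had 0, 0, 1 and 0 UMIs. Of dendritic cell genes, Flt3 had a UMI in 7 of the 89 cells (7.87%) against 1.99% of the other cells. Cd209a reached 3 or more UMIs in 3 of the 89 (3.37%) against 5.79%. Of 8 measured markers of type 2 dendritic cells, 3 were lower in all 4 libraries and 0 higher. Whether some of the 89 are dendritic cells was not tested.

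The 19 cells with Treml4 or Cd300e and no granule or dividing genes stood apart from the 64 cells with neither mark in many genes that did not set the split. They had a median of 9487 UMIs against 12041. Further markers of nonclassical monocytes were higher in them. Ace, which encodes angiotensin-converting enzyme, stood at 409 CPM against 55.7, a log2 ratio of 2.88 (2.32 to 3.45). The ratio was 5.16 (3.67 to 7.11) for the enolase gene Eno3, 2.93 (2.12 to 3.77) for Spn, 2.78 (2.17 to 3.40) for the peptidoglycan receptor gene Pglyrp1 and 2.17 (1.76 to 2.58) for Itgal, the alpha chain of the integrin LFA-1. For Nr4a1, the transcription factor nonclassical monocytes need, it was only 0.42 (0.16 to 0.68). Cd36 stood at 170.1 CPM in these cells against 7.60.

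Genes of classical monocytes were mostly lower in these cells, and 4 of those named here, Ly6c2, Ccr2, Chil3 and Plac8, are genes of the rule, which sets their levels in part. Lower in the Treml4 and Cd300e cells were Ly6c2 (340.3 CPM against 1375, log2 ratio -2.01) and Ccr2 (234 against 894, -1.93). The matrix and coagulation genes Fn1 (-2.77), F13a1 (-4.24), Vcan (-1.91) and Thbs1 (-1.40) were lower too, as were the Fc receptor gene Fcgr1 (-2.73) and the interferon-stimulated genes Isg15 (-3.50), Slfn5 (-2.70) and Ifi47 (-3.84). Chil3 (0.23, -0.00 to 0.46) and Plac8 (0.35, 0.24 to 0.46) stood near the 64 cells. Of the 20 cells counted with these markers, 10 had no UMI of Ccr2. The 19 cells came from the libraries as 14, 1, 0 and 4 and the 64 as 28, 12, 20 and 4, so these ratios may also hold differences between libraries. Within Lox_CTR alone the log2 ratio was 3.29 for Ace, 2.16 for Itgal, -2.42 for Ly6c2, -1.96 for Ccr2, -2.39 for Fn1, -4.08 for F13a1, -2.14 for Slfn5 and -2.67 for Isg15. For Thbs1 it was -0.74 (-1.10 to -0.39) there, a smaller difference than over all libraries, and for Chil3 -0.36 (-0.64 to -0.08). Not every interferon-stimulated or monocyte gene was lower there. The ratio was 0.56 (0.15 to 0.96) for Ifitm6 and 0.68 (0.39 to 0.97) for Clec4e.

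**Figure D4:**
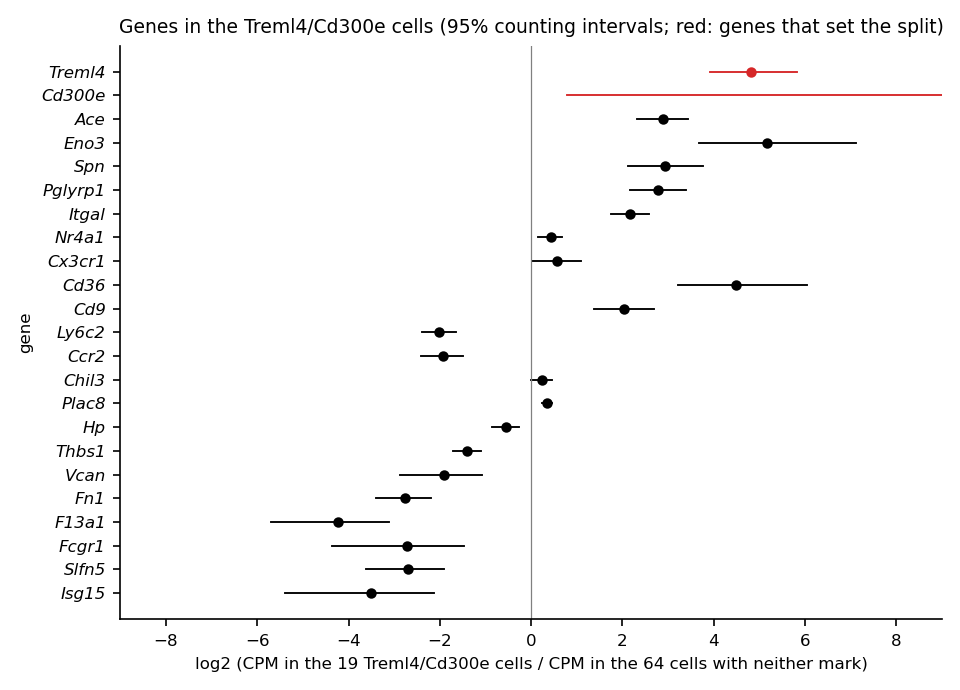
Log2 ratio of CPM in the 19 Ly6c2/Chil3 monocytes with 2 or more UMIs of Treml4 and Cd300e to CPM in the 64 without them and without granule, progenitor or dividing-cell genes; lines are 95% counting intervals, those that leave the axis end at its edge, Cd300e has no UMI in the 64 cells and so no point, and red marks the genes that set the split. Ace, Eno3 and Spn lie to the right, Ly6c2, Ccr2, Fn1 and F13a1 to the left, and Chil3 and Plac8, which like Ly6c2 and Ccr2 are genes of the rule, near 0.

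Among the other cells, 65 carried the same nonclassical markers at 2 or more UMIs of Treml4 and Cd300e (median 8374 UMIs). Over all libraries, Ly6c2/Chil3 monocytes stood above those 65 cells in F13a1, the transglutaminase of clots (506 against 9.85 CPM), Thbs1 (1095 against 141) and Ms4a4c (506 against 94.3). They stood below them in Ace (112 against 362), Spn (71.7 against 269) and C1qb (170.0 against 936). Clec4e (773 against 587), Gsr (432 against 301) and F10 (344 against 170.3) were closer between the 2 populations, while 766 macrophages with Lyve1 and Folr2 UMIs had 13.1, 16 and 2.59 CPM of these 3 genes. Neutrophils (121 cells with 2 or more UMIs of Retnlg and at least 1 of Csf3r, median 3906 UMIs) stood above the Ly6c2/Chil3 monocytes in Hp (1511 against 899 CPM), and far below in Ms4a4c (2.23) and F10 (11.2).

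Within a library, UMIs per 10000 of pairs of genes were set side by side across cells, as a description of 44 cells of Lox_CTR and 22 of Lox_HFD that share their library and differ in depth. Ccr2 ran with F13a1 in both (Spearman rho 0.604 and 0.370). In Lox_CTR it ran against Treml4 (-0.519), of which Lox_HFD had 1 UMI each in 3 cells before thinning. H2-Aa ran with Cd74 (0.560 and 0.737), and Il1b with Thbs1 (0.320 and 0.739). By Pearson r, Il1b with Thbs1 was 0.335 and 0.245. These are 4 of 10 pairs computed. Of the others, Fn1 ran with F13a1 (rho 0.504 and 0.546). Ly6c2 with Chil3 (-0.078 and 0.205) and Ccr2 with Fn1 (0.331 and 0.044) were weaker. No test was made.

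The cells also differed in genes of antigen presentation on MHC class II. H2-Aa reached 10 or more UMIs in 21 of the 89 cells (9, 6, 4 and 2), against 58.1% of the other cells. Among the 64 unmarked cells the 17 with that much H2-Aa were also high in H2-Ab1, H2-Eb1 and the invariant chain gene Cd74, with log2 ratios over the rest of the 64 of 6.50, 6.80 and 4.38. C1qb, a macrophage gene, moved with them in few cells: 3 of the 17 held 94, 35 and 24 of its UMIs, the others at most 3, and its part was not tested. Chil3 (-2.13), Hp (-2.02) and the protease inhibitor gene Slpi (-4.64) were lower in them. Ly6c2 (-0.03, -0.23 to 0.16) and Ccr2 (0.42, 0.18 to 0.64) stood near the other cells. The 17 came from the libraries as 6, 6, 4 and 1 and the 64 as 28, 12, 20 and 4. These ratios may thus also hold differences between libraries. By library, the MHC class II genes summed to 9765, 14914, 7870 and 5828 CPM against 21801 to 35944 in the other cells, and only H2-DMb2 of 9 measured was lower in all 4 libraries.

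The spread between cells of 1 library was largest for a few genes. After thinning to 5000 UMIs, the variance over the mean of UMIs per cell, taken as the median of Lox_CTR and Lox_HFD, the libraries with at least 20 cells, had a median of 1.17 and a 90th percentile of 2.02 over 2560 genes. S100a8 stood at 299.8, and 1 granule-bearing cell held 98.6% of its UMIs in Lox_CTR. It was followed by Cd74 with 75.9 and the chemokine gene Cxcl2 with 75.4. Then came the iron-storage gene Fth1, H2-Aa, Lyz2, H2-Eb1, H2-Ab1, Il1b with 25.7, Malat1, Ccl4, Gdf15, Apoe, C1qb and Thbs1 with 15.2. Cxcl2, which attracts neutrophils, ran from 0 to 484, 181, 357 and 364 UMIs per cell and was seen in 66 of the 89 cells.

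The gene targeted in the study was measured in every library. Nfe2l2 (chromosome 2, 75675513 to 75704641, minus strand) stood at 450.5 CPM (396 to 510.4) in Ly6c2/Chil3 monocytes of Lox_CTR, 557 (458 to 671) in the library labelled KO_CTR, 538 (459 to 628) in Lox_HFD and 1002 (803 to 1236) in the library labelled KO_HFD. Over all these cells it was not lower in the libraries labelled KO. In KO_HFD, however, 1 cell with Treml4 UMIs held 34 of its 87 UMIs. Within Lox_CTR, Nfe2l2 was higher in the Treml4 and Cd300e cells than in the unmarked ones (log2 ratio 0.56, 0.15 to 0.96). In the unmarked cells KO_HFD lay slightly below Lox_HFD, and KO_CTR above Lox_CTR. In endothelial cells (2 or more UMIs of Cdh5, at least 1 of Pecam1, none of Ptprc; 65, 41, 22 and 22 cells) Nfe2l2 stood at 156, 325, 182 and 342 CPM. Whether these UMIs come from the removed exon or from the rest of the transcript was not measured here, so these levels are not read as a check of the deletion. KO_CTR and KO_HFD are library labels in what follows.

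Between the HFD and CTR libraries, 430 of 4667 genes with 20 or more UMIs were at least 2-fold higher (9.21%) and 255 at least 2-fold lower (5.46%) in Lox_HFD than in Lox_CTR. In KO_HFD against KO_CTR 163 of 2121 were higher (7.69%) and 227 lower (10.7%). The genes higher in both pairs numbered 10 (0.474% of 2108) and those lower in both 20 (0.949%), with 0.5 added to each count. C5ar1, the receptor of the complement fragment C5a, had 28, 17, 52 and 18 UMIs, or 51.3, 86, 174 and 207 CPM, a log2 ratio of 1.76 (1.07 to 2.48) in the Lox pair and 1.27 (0.23 to 2.31) in the KO pair, against -0.16 and 0.20 in the other cells. In the 64 unmarked cells, of which KO_HFD held 4, its ratios were 2.50 and 1.68. Pla2g7, which encodes lipoprotein-associated phospholipase A2, stood at 244, 238, 498 and 645 CPM, with log2 ratios of 1.03 (0.69 to 1.38) and 1.44 (0.85 to 2.03), and of 1.89 and 1.04 in the 64 unmarked cells. Both genes were higher in each HFD library than in each CTR library.

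Fabp5, a fatty acid-binding protein, had 46, 14, 303 and 16 UMIs, or 84.2, 70.9, 1013 and 184 CPM, with log2 ratios of 3.59 (3.14 to 4.07) and 1.38 (0.25 to 2.52), and it was higher in the HFD libraries in the other cells too (2.06 and 1.93). In the Ly6c2/Chil3 monocytes, however, 1 cell held 40.6% of the Fabp5 UMIs in Lox_HFD and 62.5% of those in KO_HFD. The cholesterol transporter gene Abcg1 stood at 25.6, 20.2, 114 and 80.6 CPM and had the same direction in the other cells (2.45 and 1.81), although its 14, 4, 34 and 7 UMIs were too few in the KO pair to be counted. In the lipid list 4 of 17 measured genes were higher and 1 lower in the Lox pair, and 1 of 10 higher and none lower in the KO pair, with medians of 0.47 and -0.06 where those of all genes were 0.15 and 0.05. Il1rn, the antagonist of the interleukin 1 receptor, had 36, 5, 52 and 18 UMIs, but 1 cell held 55.8% of those in Lox_HFD and 88.9% of those in KO_HFD. The remaining genes higher in both pairs were Elk3, Notch2, Nmt1, Rnaset2a, Tmem208 and 1810022K09Rik. When each gene was read without the cell that held most of its UMIs in each library, 1 of the 10, 1810022K09Rik, was still past 2-fold in both pairs, while C5ar1 stood at 1.54 and 0.89 and Pla2g7 at 0.94 and 1.28.

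Among the 20 genes lower in both pairs were Camp, Ngp, Ltf, S100a8 and S100a9, which encode proteins of neutrophil granules and cytoplasm. Their UMIs came almost entirely from the granule-bearing cell of each control library, and without the granule, progenitor and dividing cells S100a8 had 43 UMIs in KO_HFD, all in 1 cell, against 0 in KO_CTR, a log2 ratio of at least 4.65 against a floor of 3 counts. S100a9 then had 4 UMIs against 2, a log2 ratio of 1.81 (-0.99 to 5.28). In the Lox pair S100a8 then had 9 UMIs in Lox_HFD against 20 in Lox_CTR, a log2 ratio of -0.10 (-1.42 to 1.10), and S100a9 2 against 20, a log2 ratio of -2.27 (-5.41 to -0.23). The chemokine genes Ccl3 and Ccl4 were also among the 20. Ccl3 had 273, 62, 43 and 2 UMIs, or 499.9, 314, 144 and 23 CPM, with log2 ratios of -1.80 (-2.30 to -1.33) and -3.77 (-6.85 to -1.85), against -1.47 and -0.37 in the other cells. Ccl4 stood at 1214, 294, 177 and 0 CPM, a log2 ratio of -2.78 (-3.21 to -2.37) in the Lox pair, where the other cells had -0.23, and at most -3.09 in the KO pair against a floor of 3 counts in KO_HFD. Tnip3, an inhibitor of NF-kappa B, followed (-3.05 and -1.69), with only 7 and 3 UMIs in the HFD libraries, and then Cxcl10 and Igfbp4.

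Some lists stood apart in 1 pair or in opposite ways. Smooth muscle genes were at least 2-fold lower in Lox_HFD than in Lox_CTR in 5 of 5 measured (median -2.49), and none of 2 in the KO pair. The 5 were also lower in KO_CTR than in Lox_CTR (-1.92), and the part of free RNA was not tested. Progenitor genes were lower in KO_HFD than in KO_CTR in 5 of 5 (-6.93). They were higher in KO_CTR than in Lox_CTR (7.09), and 2 cells of KO_CTR were marked by them. All 6 measured genes of dividing cells were at least 2-fold higher in Lox_HFD than in Lox_CTR, and 4 of 5 were lower in KO_HFD than in KO_CTR. Single cells held most of these UMIs, since Mki67, a marker of division, had 41, 39, 66 and 0 UMIs and 1 cell held 63.4%, 87.2% and 63.6% of them in the first 3 libraries. Of 7 measured MHC class II genes 6 were lower in KO_HFD than in KO_CTR, with a median log2 ratio of -2.71, and 1 was lower in the Lox pair, with a median of -0.22. Few cells held these UMIs too: for H2-Aa 1 cell held 47.2% in KO_CTR and 58.8% in KO_HFD, and the medians per cell were 1 and 0.5 UMIs. Vegfa, a growth factor of vessels, had 8, 9, 50 and 4 UMIs and a log2 ratio of 3.51 (2.42 to 4.80) in the Lox pair against 0.02 (-2.14 to 1.86) in the KO pair. Ccl2, a ligand of Ccr2, stood at 339, 96.2, 512 and 1083 CPM and Ccl7, another, at 67.8, 10.1, 36.8 and 1094, and 1 cell of KO_HFD held 95.7% and 98.9% of their UMIs there. Markers of nonclassical monocytes ran with the Treml4 cells, with 5 of 8 measured at least 2-fold lower in Lox_HFD than in Lox_CTR and 3 of 7 higher in KO_HFD than in KO_CTR.

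Between libraries labelled KO and Lox, 325 of 4269 genes were at least 2-fold higher (7.61%) and 319 lower (7.47%) in KO_CTR than in Lox_CTR, and 141 of 2869 higher (4.91%) and 363 lower (12.7%) in KO_HFD than in Lox_HFD. In both pairs 2 genes of 2809 were higher (0.0712%), Lrrc8c, a subunit of the volume-regulated anion channel, and Strn3, a phosphatase scaffold, with 15, 15, 14 and 11 and 15, 16, 14 and 10 UMIs. Neither was higher in the other cells of KO_HFD than of Lox_HFD. Without the Treml4 and Cd300e cells the log2 ratio of Strn3 between the HFD libraries was -0.033, and when each gene was read without the cell that held most of its UMIs, 0 genes were higher in both pairs. Lower in both were 20 genes (0.712%). Hilpda, a lipid droplet protein induced by hypoxia, had 78, 4, 71 and 1 UMIs, or 143, 20.2, 237 and 11.5 CPM, with log2 ratios of -2.82 (-4.73 to -1.41) and -4.37 (-9.69 to -1.84), against -1.29 and -0.49 in the other cells. In the 64 unmarked cells its ratios were -2.88 and -3.69. Rgs2, a regulator of G protein signaling, had 131, 19, 86 and 4 UMIs and ratios of -1.32 (-2.10 to -0.62) and -2.64 (-4.55 to -1.23), against 0.39 and -0.07.

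Gdf15, a stress-induced cytokine, had 35, 2, 165 and 1 UMIs, and 1 cell held nearly all of those in Lox_HFD. The stress transcription factor gene Ddit3 had 24, 2, 21 and 2 UMIs, and Ccl4, Cxcl1, Slc39a1, Dars, Gla and Ube2j1 were the others named. Hilpda and Rgs2 kept their direction and remained past 2-fold in both pairs without the cell that held most of their UMIs. Of the Nrf2 list 4 of 14 measured genes were at least 2-fold lower in KO_CTR than in Lox_CTR, and none of 11 in KO_HFD than in Lox_HFD, with median log2 ratios of -0.58 and 0.12 where those of all genes were 0.04 and -0.04. Hmox1, the heme oxygenase 1 gene and a target of Nrf2, stood at 302, 45.5, 127 and 138 CPM, a log2 ratio of -2.73 (-3.88 to -1.77) between the CTR libraries and 0.12 (-0.95 to 1.09) between the HFD libraries, against -0.69 and 0.71 in the other cells. Nqo1, another target, had 0, 0, 2 and 0 UMIs.

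**Figure D5:**
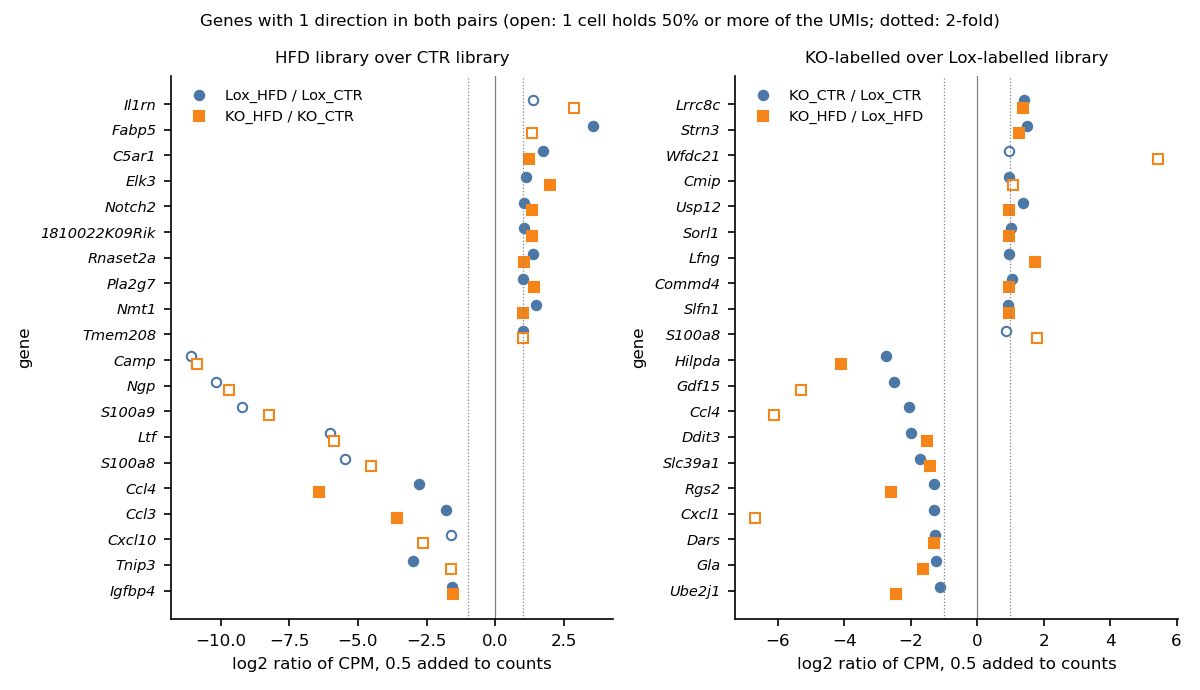
Log2 ratio of CPM between libraries, after adding 0.5 to counts, scaled by depth, for the 10 genes highest and the 10 lowest with 1 direction in both pairs: HFD over CTR libraries (left) and KO-labelled over Lox-labelled libraries (right). Dotted lines mark 2-fold, and an open point means that in the library with the higher level 1 cell held 50% or more of the UMIs, as for Camp, Ngp, S100a8 and S100a9; C5ar1, Pla2g7, Hilpda and Rgs2 have filled points in both pairs.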

How the data were processed

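Single-cell RNA was measured in 4 pooled libraries of mouse aortic arch cells, 1 per group. The authors deposited UMI counts per gene and cell barcode, not normalized, for 31053 genes. Cell Ranger 6.1.2 and the mm10 build are named in the submitters' processing notes. Gene positions are those of GENCODE M21 on mm10, and promoters those of RefSeq on GRCm38.p6.

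Cells were kept at 200 to 6000 genes and no more than 15% of UMIs from mitochondrial genes. They numbered 7890, 2972, 1020 and 2266, with medians of 12133, 14152.5, 10963 and 9200.5 UMIs. The Ly6c2/Chil3 monocytes and the gene lists were chosen with earlier results of these data known. Counts were summed over cells of a library and divided by the summed UMIs (CPM). Ratios carry exact 95% intervals for counting error only, and shares carry Clopper-Pearson intervals. Where a fold was called or ranked, 0.5 was added to each count. Where a library had no UMI of a gene, a bound on the ratio was taken from a floor of 3 counts. With 1 library per group no test was made, and mice within a pool cannot be separated. Shares were also read after thinning each cell to 5000 UMIs, leaving out shallower cells. Spread and pairs of genes were read only in such thinned cells. Scrublet called 190, 64, 10 and 42 kept cells as doublets. They were left in, and an alternative removed them.

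The genes named were the 20 highest by the lowest of the 4 libraries' ratios and the 10 lowest by the highest, with 50 or more UMIs. Between libraries they were the 10 highest and 10 lowest by the smaller ratio of both pairs, with 20 or more UMIs in each pair, and for spread the 15 with the highest variance over mean, besides genes of the fixed lists. Genes of the rule were left out of these counts, and some genes that the choice included are not reported here. Other genes named in the split by Treml4 and Cd300e or by H2-Aa were chosen after their values were seen. Alternatives changed the thresholds, the minimum counts, the scaling and the cells included. The scripts ran in Python 3.11.15 with scanpy 1.11.5, scipy 1.17.1 and matplotlib 3.10.9, and were tested on simulated data.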

Additional observations from a re-analysis of the deposited data

Results flagged for a closer look

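Ly6c2/Chil3 monocytes were 0.558%, 0.505%, 2.16% and 0.353% of kept cells in Lox_CTR, KO_CTR, Lox_HFD and KO_HFD. The share was higher in Lox_HFD than in Lox_CTR. Between the KO libraries the counting intervals overlapped (0.283 to 0.831% and 0.153 to 0.694%), and after thinning to 5000 UMIs the shares were 0.452% and 0.448%. Cells with 2 or more UMIs of Treml4 and Cd300e were 34.1%, 6.67%, 0% and 50% of them, on 15, 1, 0 and 4 cells, so that HFD was below CTR in the Lox pair and above it in the KO pair.

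A further 10 genes had intervals on opposite sides of 0 in the 2 HFD over CTR pairs. In the list of nonclassical markers 5 of 8 measured were at least 2-fold lower in the Lox pair and 3 of 7 higher in the KO pair. Its most abundant gene, Nr4a1, stood at 555, 693, 612 and 726 CPM. Among the 10 genes, Ace, Eno3, Itgal and Treml4 were lower in the Lox pair and higher in the KO pair. Their log2 ratios were -1.02 and 3.06, -3.77 and 5.19, -1.57 and 1.14, and -3.72 and 1.92. The same held for Hp (-0.43 and 0.91), of which 1 cell held 53.2% of the UMIs in KO_HFD, for Ifitm2 (-0.57 and 0.32), Ifitm6 (-0.80 and 0.91) and Plac8, a gene of the rule (-0.67 and 0.27). Ccr2, also of the rule (0.70 and -0.50), and Slfn5 (0.84 and -1.23) were higher in the Lox pair and lower in the KO pair. These ratios are over all cells, of which the Treml4 and Cd300e cells numbered 15, 1, 0 and 4. In the unmarked cells, Ace was instead higher in the HFD library of both pairs, on few UMIs in the KO pair. Ccr2 was nearly equal there between the KO libraries. Opposite directions over all cells thus depend in part on which cells are counted. With 1 library per group, none of these differences between pairs was tested.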

How the results depend on the processing

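Each group is 1 library, so every value rests on single libraries, and KO_HFD on 8 cells. No paired analysis was possible because each group is 1 library. Of the values that answer a comparison, 136 stayed close and 36 moved. Of those for single genes, 914 kept their direction and side of 2-fold, 26 passed it, 76 no longer did and 11 changed sign, with no fold given where both counts were at or under 3. The alternatives that leave out marked cells, each gene's highest cell or the condition on Pdgfra, or that keep to Lox_CTR for the Treml4 and Cd300e cells, were chosen after seeing the data.

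Without the Treml4 and Cd300e cells the share was 0.368% in Lox_CTR and 0.177%, on 4 cells, in KO_HFD. Without 1 library each, genes higher in the remaining 3 numbered 160.0 to 245, and lower 1247 to 1692. Genes lower in all 4 were 685 at a minimum of 200 UMIs, 2199 at 10 and 717 without the Pdgfra condition. At 50 UMIs per pair, genes higher and lower were 125 and 70 between the Lox libraries, 43 and 59 between the KO libraries, 81 and 79 between the CTR libraries and 33 and 89 between the HFD libraries. In both pairs they were 2 and 11 for diet and 0 and 5 for label. Without each gene's highest cell, genes higher numbered 216, 62, 108 and 49 in the 4 pairs, 1 for diet and 0 for label in both, and 47 were lower by label in both. Without the Pdgfra condition, genes higher were 269 for the KO pair, 214 for the HFD pair, 16 for diet and 9 for label in both, and 488 were lower for the CTR pair. Higher in both pairs were 3 for diet with centred ratios and 4 after thinning, and for label 7 by mean CPM over cells, 4 after thinning, 8 without the granule, progenitor and dividing cells and 10 without the Treml4 and Cd300e cells, where 40 were lower.

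Signs changed for Met (-3.02), at 0 UMIs in its lowest library, without the Treml4 and Cd300e cells. For HFD over CTR they changed after thinning for Il1rn (-0.44) and S100a8 (0.93) in the Lox pair and S100a8 (6.84) and S100a9 (1.45) in the KO pair. Without the granule, progenitor and dividing cells they changed for S100a8 (6.90) and S100a9 (1.54) in the KO pair, without the Treml4 and Cd300e cells for S100a8 (0.20) in the Lox pair, and without the Pdgfra condition for Igfbp4 (2.32) in the KO pair. For KO over Lox in the HFD libraries they changed for Strn3 (-0.033) without the Treml4 and Cd300e cells and Cxcl1 (0.034) without the Pdgfra condition. These ratios have 0.5 added to each count, and without the granule, progenitor and dividing cells S100a8 had 0 UMIs in KO_CTR, so that 6.90 is no size and the bound is 4.65. The cause was not tested beyond which cells each alternative leaves out.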
